A study of Mus musculus with 72 samples.

Results

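Trimethylation of histone H3 at lysine 27 (H3K27me3) was compared between activated OT-I CD8+ T cells cultured for 48 h in medium without glutamine and cells cultured with vehicle. The members were all regions in the deposited H3K27me3 peak lists of these conditions, 13556 with vehicle and 8795 without glutamine, together 22351 of the 54819 regions in the 8 peak lists of the series. No measured difference was used to choose them. OT-I mice carry a transgenic T cell receptor for the ovalbumin peptide SIINFEKL. Their splenocytes, freed of red cells, were cultured at 2 M cells per mL in RPMI with serum, 100 IU/mL of IL-2 and 10 ng/mL of SIINFEKL. Vehicle cultures had glutamine and a solvent, DMSO or PBS, which the labels do not tell apart. The glutamine-free cultures shared every other listed addition. Chromatin was profiled by CUT&RUN, in which a nuclease tethered by an antibody releases the bound DNA, in 2 replicates per condition, and RNA by RNA-seq in 4 libraries per condition. The series holds 72 samples, 52 of RNA and 20 of CUT&RUN, and also includes CB-839 (a glutaminase inhibitor) and DON (a glutamine analog), used here as further peak lists and as RNA libraries in the shared fit of 48 h.

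H3K27me3 is deposited by Polycomb repressive complex PRC2, whose catalytic subunit is EZH2 or EZH1, and is bound by the CBX subunits of PRC1. It marks repressed genes, most heavily the developmental regulators of other lineages, and in CD8+ T cells it is also found at genes of alternative T cell fates. The demethylases KDM6A and KDM6B remove it in a reaction that uses 2-oxoglutarate, which cells can make from glutamine through glutamate. PRC2 takes its methyl groups from S-adenosylmethionine, which is linked to serine and one-carbon metabolism.

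In mammals PRC2 is found mainly at promoters rich in CG dinucleotides, and the promoters of 6 genes below show how widely the marked sequences ranged. Each is the 250 bases upstream of a RefSeq gene start in GRCm38.p6, 5′ to 3′ on the gene's strand, with every CG in capitals. All 250 bases lay inside the named peak or peaks and none in a peak of the other list. Hoxa13, a limb and trunk patterning factor at chr6:52260881-52261130 on the minus strand, and Rora, a nuclear receptor at chr9:68653536-68653785 on the plus strand, were covered in both lists and held 35 and 26 CG. Eomes, a memory T cell factor at chr9:118477939-118478188 on the plus strand, and Il4, a helper cytokine at chr11:53618666-53618915 on the minus strand, were covered with vehicle only and held 8 and 0. Stc2, a secreted stress-response glycoprotein at chr11:31370062-31370311 on the minus strand, and Ccr6, a chemokine receptor at chr17:8235793-8236042 on the plus strand, were covered without glutamine only and held 24 and 1.
Hoxa13: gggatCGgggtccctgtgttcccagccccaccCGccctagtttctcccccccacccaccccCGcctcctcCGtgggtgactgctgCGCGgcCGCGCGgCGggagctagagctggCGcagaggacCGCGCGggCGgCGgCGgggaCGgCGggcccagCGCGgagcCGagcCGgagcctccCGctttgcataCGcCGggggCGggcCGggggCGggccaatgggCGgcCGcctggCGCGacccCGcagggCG
Rora: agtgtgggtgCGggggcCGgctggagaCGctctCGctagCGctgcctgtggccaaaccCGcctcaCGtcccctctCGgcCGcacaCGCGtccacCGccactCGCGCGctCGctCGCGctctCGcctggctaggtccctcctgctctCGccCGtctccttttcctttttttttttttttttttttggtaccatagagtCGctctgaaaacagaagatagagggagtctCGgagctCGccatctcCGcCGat
Eomes: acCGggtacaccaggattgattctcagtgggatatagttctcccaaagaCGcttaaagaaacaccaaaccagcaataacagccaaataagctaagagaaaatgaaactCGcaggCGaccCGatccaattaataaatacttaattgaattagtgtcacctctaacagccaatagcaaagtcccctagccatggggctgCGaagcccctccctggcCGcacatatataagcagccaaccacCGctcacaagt
Il4: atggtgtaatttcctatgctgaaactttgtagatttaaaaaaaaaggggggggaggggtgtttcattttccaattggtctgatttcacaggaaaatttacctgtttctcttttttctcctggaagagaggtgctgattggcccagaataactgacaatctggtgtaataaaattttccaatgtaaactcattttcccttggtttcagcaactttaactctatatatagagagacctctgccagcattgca
Stc2: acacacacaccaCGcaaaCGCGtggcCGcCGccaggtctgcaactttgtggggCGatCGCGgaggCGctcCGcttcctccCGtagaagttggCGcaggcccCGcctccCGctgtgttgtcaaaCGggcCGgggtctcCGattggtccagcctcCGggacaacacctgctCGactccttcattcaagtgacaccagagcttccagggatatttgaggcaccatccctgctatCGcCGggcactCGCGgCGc
Ccr6: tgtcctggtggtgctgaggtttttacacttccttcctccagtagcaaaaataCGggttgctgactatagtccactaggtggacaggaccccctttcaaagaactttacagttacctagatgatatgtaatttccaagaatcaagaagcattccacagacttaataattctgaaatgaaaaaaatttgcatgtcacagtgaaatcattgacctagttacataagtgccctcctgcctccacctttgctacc
The letters CG, which read the same on both strands, occurred in 95% of the 14038 protein-coding promoters of the same length that could be matched. Under 80% of the genes of each class were matched (1577 of 2320 with a peak in both lists, 729 of 1096 with vehicle only and 293 of 427 without glutamine only), so a comparison of CG content between the classes is void and is not given.

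Fewer and wider H3K27me3 regions were listed without glutamine. The vehicle list covered 64.98 Mb and the glutamine-free list 50.66 Mb. Median peak width was 3702 bases with vehicle (quartiles 2150 and 5982) and 4601 bases without glutamine (2765 and 7236). The widest class hardly differed in number, with 1146 regions over 10 kb with vehicle and 1115 without glutamine, so the difference in count lay in narrower regions. Each list is 1 merged call from 2 replicates kept at an irreproducible discovery rate (IDR) of 0.05, a measure of how reproducibly a region ranks in both replicates. A rate of 0.01 was met by 6629 vehicle regions (48.9%) and 2937 glutamine-free regions (33.39%). Across regions, the log2 signals of the replicates were nearly unrelated within each list (r = 0.047 with vehicle and -0.0517 without glutamine, over regions that are not independent and were selected by both signals). With 1 list per condition the counts, widths and overlaps carry no test between conditions, and 2 replicates against 2 could not give an exact permutation p below 0.333. CUT&RUN depth is unknown here, so whether list length follows the mark, the depth or the reproducibility of the replicates cannot be told apart.

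Most glutamine-free regions lay where the vehicle list also had a region, while fewer than that share of vehicle regions were met again. Of the 8795 glutamine-free regions 5946 (67.61%, exact 95% interval 66.62 to 68.58) shared at least 1 base with a vehicle region. Of the 13556 vehicle regions 6116 (45.12%, 44.28 to 45.96) shared one with a glutamine-free region, which left 7440 (54.9%) unmatched. These intervals cover counting error only. In bases, 32.28 Mb were common, 49.68% of the vehicle list and 63.73% of the glutamine-free list. Unmatched vehicle regions were narrow, with a median of 2744 bases against 5446 for matched ones, and lay farther from a gene start, at a median of 17970 bases against 5744. The same held without glutamine, where unmatched regions had a median width of 2958 bases against 5727 and a median distance of 20470 bases against 5620.

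The matched share was higher in each wider class of regions. Vehicle regions under 1 kb were matched in 13.20% of cases, those of 3 to 5 kb in 41.35% and those over 15 kb in 97.39% (410 of 421). The same width classes of glutamine-free regions were matched in 24.89%, 61.40% and 99.48% (384 of 386). A wider region also has more bases that can be met by chance, and this was not separated. Reproducibility behaved likewise: of the 745 vehicle regions just inside the IDR threshold (-log10 IDR of at most 1.35) 20.54% were matched, and of the 289 at the highest value the files give, 92.04%. Where 1 vehicle region met 1 glutamine-free region, in 4171 pairs, width was nearly the same, with a median ratio of 1.002 (quartiles 0.7357 and 1.35), and 49.7% were narrower without glutamine. A further 614 vehicle regions each met more than 1 glutamine-free region and 741 glutamine-free regions each met more than 1 vehicle region.

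**Figure D1:**
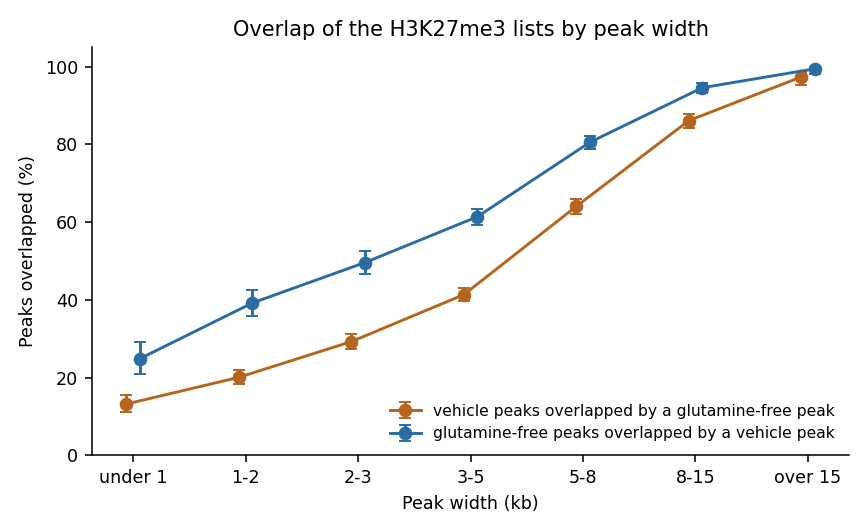
Share of H3K27me3 regions (y axis, percent) that share at least 1 base with the other list, by region width (x axis, kb), for vehicle regions (orange) and glutamine-free regions (blue); bars are exact 95% intervals for counting error only. Both lines climb from 13.20% and 24.89% under 1 kb to 97.39% and 99.48% over 15 kb.

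Regions at promoters, taken as 1000 bases either side of the start of a protein-coding gene, had a higher matched share than others. With vehicle 3345 regions (24.68%) lay at a promoter and 70.79% of them were matched, against 39.08% of the 3705 within gene bodies and 35.35% of the 6506 between genes. Without glutamine the promoter share was 29.62% (2605 regions), and 87.37% of these, 59.55% of gene-body and 59.13% of intergenic regions were matched. The order held among vehicle regions of 2 to 5 kb, at 52.85%, 34.33% and 32.59%. By chromosome, the glutamine-free list held 55.06 (chromosome 10) to 72.05 (chromosome 5) regions per 100 vehicle regions on the autosomes. Chromosome X had the lowest ratio, 41.55, with 142 vehicle and 59 glutamine-free regions, and 28.17% of the former and 76.27% of the latter were matched. The X counts are small, and the sex of the mice was not used here.

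The HOX clusters, which encode the factors that set position along the body axis and are classic PRC2 targets, were covered in both lists. All 4 clusters had regions in both, and 37 of the 39 HOX genes had a promoter region with vehicle and without glutamine. The HoxC cluster held the strongest region by the authors' signal in either list: 1 region of 169.7 kb with vehicle (replicate signals 34 and 21.2) and a main one of 106.6 kb without glutamine (40.7 and 30.4). Coverage of the HoxC cluster was 100.0% and 97.9%, and of HoxD 95.1% and 93.4%. HoxB was covered over 78.9% with vehicle and 72.2% without glutamine. HoxA was covered over 69.4% and 66.7%, as 5 regions of up to 69.4 kb with vehicle and 8 regions of up to 30.9 kb without glutamine. The HOX genes with a promoter region in neither list were Hoxa5 and Hoxb4, and Hoxb4 had RNA in these cells.

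Developmental transcription factors showed nearly the same retention. Of 116 measured, 99 had a promoter region in both lists, 9 with vehicle only and 4 without glutamine only. Thus 9 of 108 with a vehicle region (8.33%) lacked a glutamine-free one, beside 34.8% over all 5671 genes with a vehicle promoter region. Their vehicle regions were wide, with a median of 16440 bases for this list against 6216 over all genes with a vehicle promoter region. Those with vehicle only included Dlx2, Irx2, Isl1, Neurog3, Sox2, Sox9, Zic1 and Zic4. For Dlx2, a forebrain homeobox factor, the nearest glutamine-free region began 2.00 kb from the gene start. At Irx2, an Iroquois homeobox gene, the nearest was 630 kb away, and its vehicle region was only 0.903 kb wide. Those without glutamine only were Irx1, Otx2, Prrx2 and Sox3. The Otx2 region, at a head-patterning factor, spanned 14.2 kb, and the nearest vehicle region began 1.89 kb from the start. Morphogen and growth factor genes followed with 40 in both lists, 9 with vehicle only (18.4% of 49) and 4 without glutamine only of 67 measured. Shh, a patterning ligand, was among the vehicle-only genes with a region of 10.9 kb and a glutamine-free region 1.81 kb from its start, while Ptch1, its receptor, had a vehicle region of 5.31 kb and none without glutamine within 42.4 kb.

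Among genes of T cell fates, the share of vehicle promoter regions with no glutamine-free counterpart was higher in these lists, with no test. The 7 lists of naive and memory, effector, cytotoxic, inhibitory, helper, chemokine receptor and NK-type genes together held 148 genes, of which 26 had a vehicle promoter region. Of those 26, 15 (57.7%) lacked a glutamine-free one, beside 34.8% of all genes with a vehicle promoter region. The 26 were also more expressed, with a median of 0.583 counts per 1 M (CPM) with vehicle against 0.0207 over all such genes. Among all protein-coding genes over 1 CPM with a vehicle promoter region the share was 52.3% (403 of 771). List membership and RNA level were not separated. In vehicle regions over 5 kb the shares were 9 of 19 (47.4%) for the T cell lists, 6 of 137 (4.38%) for HOX and developmental factors together, and 21.1% of all such genes. A CB-839 promoter region was present at 14 of the 15, beside 57.9% of all 1974 vehicle-only genes. The vehicle-only genes were Eomes, Lef1 and Igfbp4 among naive and memory genes, and Prdm1, Id2 and Maf, with Eomes again, among effector factors. Of 23 CD4 lineage and helper genes 6 were vehicle only, among them Zbtb7b, which directs the CD4 fate, and the cytokines Il4, Il9, Il17a and Il22. Gata3, the TH2 factor, had a region in both lists, as did Rora, and Cd4 and Ccr6 had one without glutamine only. The inhibitory list had Nt5e, the ectonucleotidase CD73, and Tox2 in both and none in 1 list only. None of the 14 CD8 T cell genes and none of the 16 housekeeping genes had a promoter region in either list. In other lists, neuronal and ion channel genes had 20 in both, 8 with vehicle only and 4 without glutamine only of 49, and erythroid and stem cell genes 8, 2 and 0 of 16. The B cell factors Pax5 and Ebf1 had regions in both, whereas Btk, Cd22 and Vpreb3 had one with vehicle only. These are counts of list entries with no test.

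**Figure D2:**
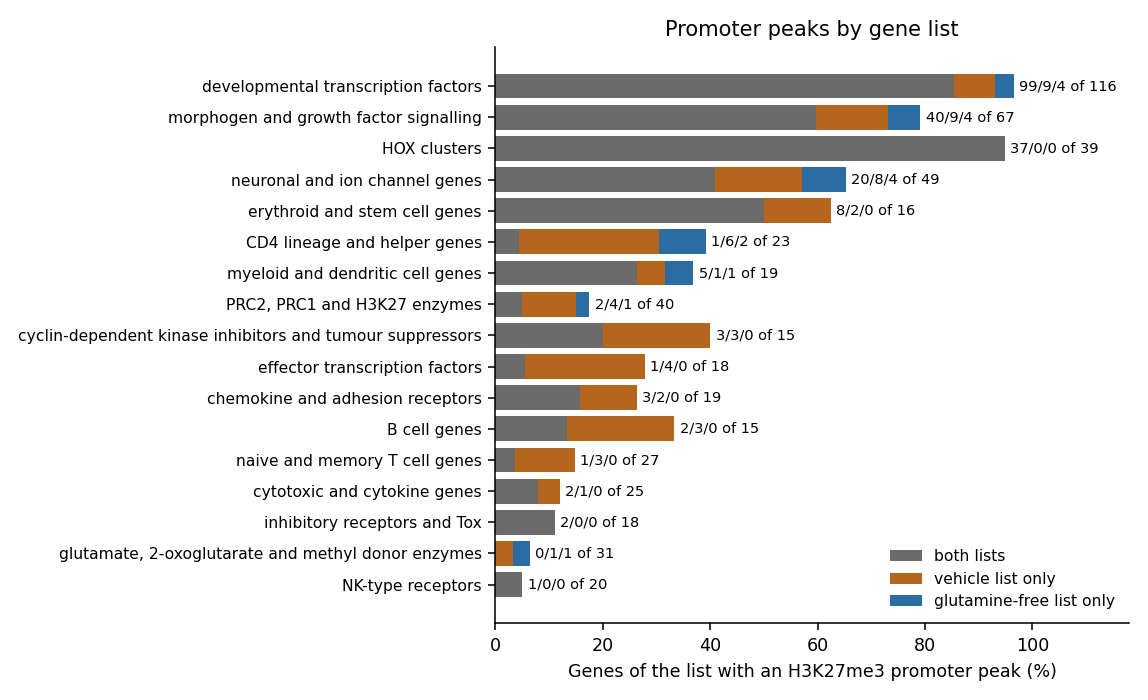
Share of the genes of each list (x axis, percent; 1 bar per list) with an H3K27me3 promoter region in both lists (grey), with vehicle only (orange) or without glutamine only (blue), with the numbers beside each bar. HOX and developmental factors are almost wholly grey, at 37 of 39 and 99 of 116, while the helper list has 1 gene in both and 6 with vehicle only.

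Seen along the locus, the vehicle-only genes shown differed in how near a glutamine-free region lay. At some, glutamine-free regions were listed nearby. Maf, which encodes a factor of helper and regulatory cells, had a vehicle region from 11 kb upstream to 8.89 kb downstream of its start (replicate signals 17.6 and 7.35, 56th of its list). Without glutamine 3 regions, at 13.5 to 7.17 kb upstream, 6.26 to 3.3 kb upstream and 1.79 to 3.95 kb downstream, left the start uncovered. Prdm1, which encodes the effector factor BLIMP1, had a vehicle region from 0.012 kb upstream to 10.9 kb downstream (8.53 and 4.31), and glutamine-free regions began at 2.81, 4.62 and 6.96 kb. For Eomes the vehicle region ran from 3.82 kb upstream to 2.94 kb downstream (4.90 and 8.55), and the nearest glutamine-free one ended 4.68 kb upstream. At others no glutamine-free region lay near. Lef1, a factor of naive cells, had a vehicle region from 3.76 to 0.6 kb upstream (4.09 and 5.05) and none without glutamine within 94.3 kb. Il4 had one of 3.9 kb upstream to 5.76 kb downstream and none within 116 kb, and Cdkn1a, the cell cycle inhibitor p21, one of 0.351 to 3.53 kb downstream and none within 55.6 kb. Over all 1974 vehicle-only genes, 422 (21.4%) had a glutamine-free region within 5 kb of the start and the median distance to the nearest was 32.7 kb. Over the 814 genes without glutamine only, 274 (33.7%) had a vehicle region within 5 kb and the median distance was 14.1 kb.

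Some loci kept a broad domain under both conditions. Cdkn2a, which encodes the cell cycle inhibitor p16 and ARF, had a region from 21.5 kb upstream to 8.96 kb downstream with vehicle (8.36 and 8.37, 478th of its list) and from 21.9 kb upstream to 6.51 kb downstream without glutamine (19.2 and 14.5, 11th). Ranks from lists of unequal length are given side by side and show no change. Gata3 had 1 vehicle region from 13.7 kb upstream to 9.43 kb downstream, and without glutamine 2 regions over nearly the same stretch. At Ccr6 the glutamine-free region ran from 12.7 kb upstream to 3.04 kb downstream (11.9 and 7.43), while the nearest vehicle region ended 3.43 kb upstream. Stc2 had a glutamine-free region from 3.8 kb upstream to 1.37 kb downstream (3.50 and 6.30), and no vehicle region within 340 kb. That region was close to the IDR threshold (-log10 IDR of 1.36), and Stc2 also had a promoter region in the CB-839 and DON lists.

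**Figure D3:**
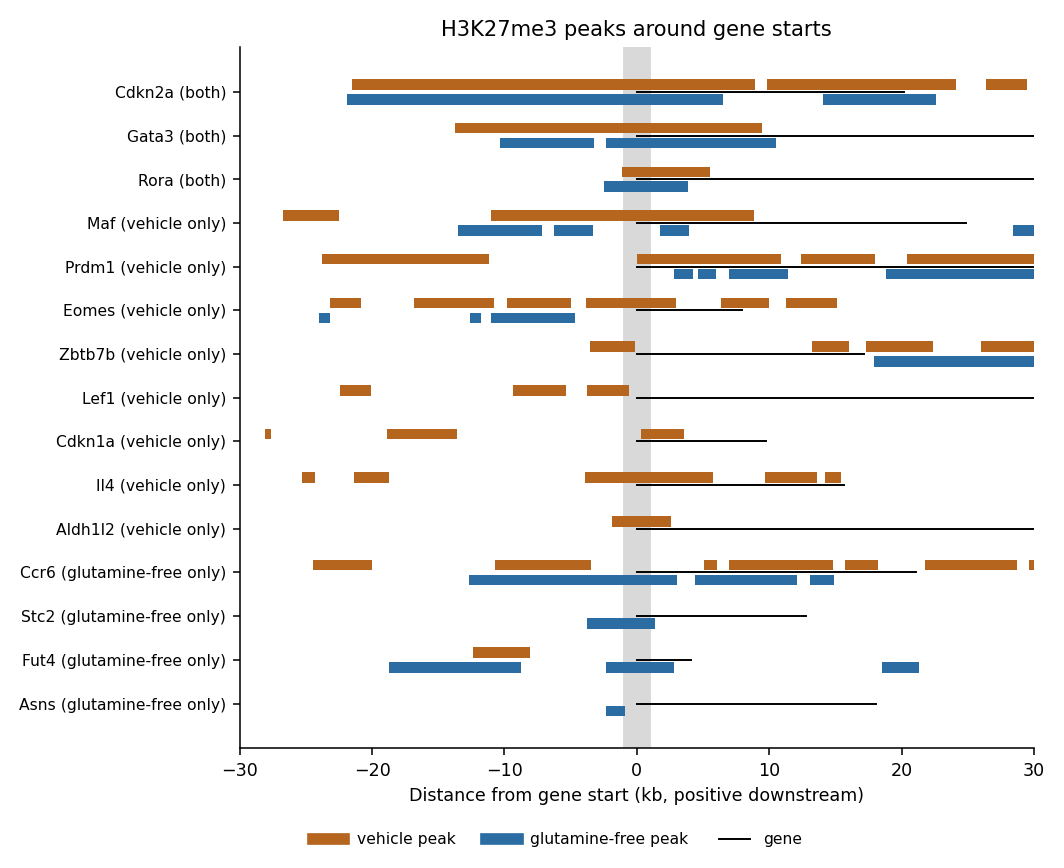
H3K27me3 regions with vehicle (orange) and without glutamine (blue) around the starts of the named genes (x axis, distance from the gene start in kb along the direction of transcription; 1 row per gene), with black lines for the genes and a grey band for the promoter window. Maf and Prdm1 show shorter pieces away from the start without glutamine, Lef1 and Il4 show none in the window, and Cdkn2a and Rora are covered at the start in both.

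Counted over all genes, 3697 had a promoter region in both lists, 1974 with vehicle only (34.8% of the 5671 with a vehicle region) and 814 without glutamine only (18% of 4511). The lists differ in length: with the vehicle list cut to its 8795 strongest regions, 1346 genes were vehicle only and 1288 glutamine-free only. Some strong regions reached a promoter window in 1 list only. Ddx52, an RNA helicase gene, had a vehicle region of 29.3 kb (22.8 and 14.2) that a glutamine-free region met outside the promoter window, 1.54 kb from the start. At Glt28d2 a vehicle region of 12.8 kb (12.7 and 13.8) had no glutamine-free region within 81.1 kb. Without glutamine, a region of 12.4 kb (17.8 and 7.35) covered the starts of the cardiac myosin gene Myh6 and its antisense RNA Mhrt, with the nearest vehicle region 27.1 kb from the Myh6 start. Foxs1, a forkhead factor gene, had a glutamine-free region of 14.1 kb (14.7 and 11.6) that a vehicle region met 4.68 kb from the start, outside the promoter window.

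Expressed genes with a vehicle promoter region had the highest share lacking a glutamine-free one. RNA level was taken as the mean CPM (counts per 1 M counts of the scaled library) in vehicle libraries, a scale that does not correct for gene length. Among protein-coding genes with a vehicle promoter region, 25.4% of the 1834 under 0.1 CPM had none without glutamine, 28.1% of the 811 from 0.1 to 1 CPM, 47.5% of the 493 from 1 to 10 CPM and 60.8% of the 278 over 10 CPM. Divided at 1 CPM the shares were 52.3% (403 of 771) above and 26.2% (693 of 2645) at or below. Regions at expressed genes were narrower, with a median of 4996 bases against 6646. Within vehicle regions of 2 to 5 kb the shares were 64.7% and 43.2%, and of 5 to 15 kb 35.3% and 18.8%. In the reverse direction, with RNA level taken in glutamine-free libraries, 17.9% of 435 genes over 1 CPM and 15.1% of 2312 others with a glutamine-free region lacked a vehicle one. In glutamine-free regions of 2 to 5 kb these shares were 26.4% and 30.2%. Against the CB-839 list, the vehicle genes lacking a region were 24.5% over 1 CPM and 12.4% of the others. The regions at expressed genes also sat differently: a vehicle region covered the start base itself at 52.4% of genes over 1 CPM and at 84.6% of the others, and a glutamine-free region at 60% and 90.9%. This division was chosen after the data were seen and carries no test.

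**Figure D4:**
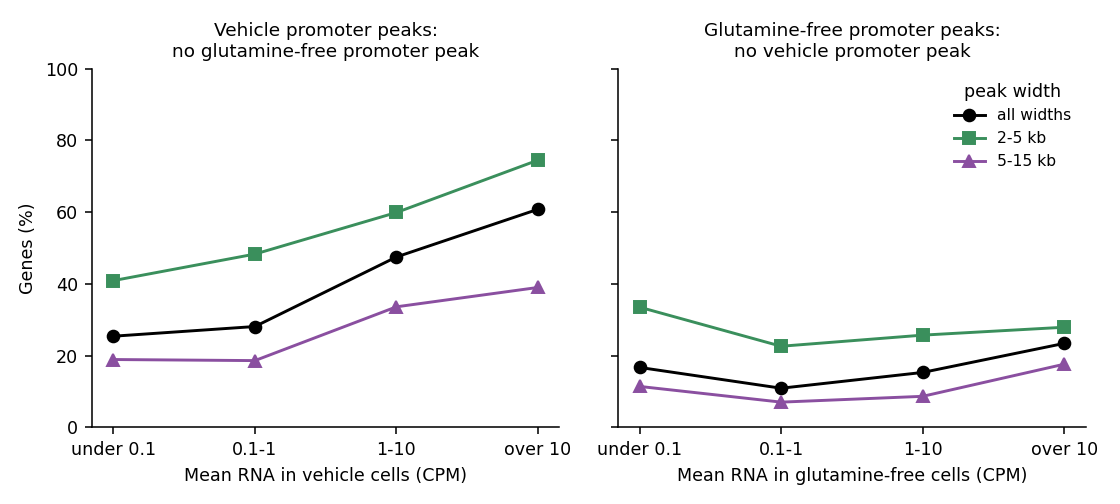
Share of protein-coding genes (y axis, percent) with a promoter region in 1 list that lack one in the other, by mean RNA level (x axis, CPM), for vehicle regions on the left and glutamine-free regions on the right; lines are regions of all widths (black), 2 to 5 kb (green) and 5 to 15 kb (purple), without error bars. The black line climbs from 25.4% under 0.1 CPM to 60.8% over 10 CPM on the left, and lies between 10.9% and 23.4% on the right.

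The RNA libraries held 35.4 to 44.7 M counts with vehicle and 35.2 to 48.2 M without glutamine. Vehicle library C stood apart from the other 3, and without it 9297 genes were called in place of 8777, with 438, 523 and 92 in place of 423, 521 and 97 in the promoter classes of vehicle only, both and glutamine-free only. CD8 T cell markers summed to 2460 to 2780 CPM with vehicle and 1860 to 1910 without glutamine, while B, NK and myeloid markers summed to 1.0 CPM or less in every library. The CD8 T cell markers did not move as 1 group. Thy1 had the largest fall, from a mean of 954 to 474 CPM, and Cd8a, Cd8b1 and Cd3g were also called lower. Cd3d (296 and 331 CPM) and Cd3e (115 and 123 CPM) were not called. Erythroid markers, mostly Gata1, summed to 0.698 to 0.927 CPM and 1.75 to 2.18 CPM. The 4 replicate letters are not said to be separate animals, so p-values measure only the spread between these samples. In bulk RNA, fewer cells of a type and less RNA per cell cannot be told apart. Over 16173 genes tested by edgeR's quasi-likelihood test at a Benjamini-Hochberg adjusted p under 0.05, 4528 (28%) were higher and 4249 (26.3%) lower without glutamine, and 1829 (11.3%) were called and at least 2-fold apart.

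Each class of H3K27me3 promoter held about as many genes that rose as genes that fell. Of the 724 vehicle-only genes tested (of 1974), 228 (31.5%) rose and 195 (26.9%) fell, beside the 28% and 26.3% of all genes, and their median log2 fold change was 0.039 against 0.022 over all genes. Of the 994 tested with a region in both lists (of 3697), 257 (25.9%) rose and 264 (26.6%) fell, with a median of 0.005. Of the 170 tested with a glutamine-free region only (of 814), 49 (28.8%) rose and 48 (28.2%) fell, with a median of -0.069. Scaled by library totals alone, which moved the median of all genes by 0.101 on the log2 scale, the counts up and down were 261 and 164, 304 and 231, and 56 and 34, beside 5607 and 3216 over all genes. What these classes shared was large changes: 23.6%, 29.7% and 25.9% were called at 2-fold or more, against 11.3% of all genes and 9.23% of genes without a region. They were also expressed at lower levels, with median log2 CPM of 1.40, -0.131 and 0.935 against 4.27 for genes without a region. At a log2 CPM of 2 to 4 the shares at 2-fold or more were 22.9%, 21.1% and 25%, against 9.66% of genes without a region. Under 0 they were 30.2%, 33.4% and 31.9% against 20%, and at 4 or more 4.85%, 11.9% and 22.6% against 3.40%. From 0 to 2 they were 32.8%, 33.6% and 17.6% against 16.5%. In that range the glutamine-free-only class, with 34 genes tested, hardly differed from genes without a region. Genes that failed the filter on low counts are not in these shares.

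Among vehicle-only genes the RNA of several rose many-fold. Aldh1l2 encodes the mitochondrial 10-formyltetrahydrofolate dehydrogenase, and its vehicle region of 4.47 kb (3.50 and 3.89) had no glutamine-free neighbour within 195 kb. Its RNA was 1.59, 2.09, 1.59 and 2.61 CPM in vehicle libraries A to D and 43, 42.8, 42.9 and 46.6 CPM in glutamine-free libraries A to D. The groups did not overlap, and the log2 fold change was 4.48 (SE 0.17, edgeR adjusted p 4.85e-13). Zbtb7b RNA was 4.66, 3.81, 5.41 and 5.21 CPM with vehicle and 33.7, 30.8, 27.9 and 33.2 CPM without glutamine, a log2 fold change of 2.72 (SE 0.11, edgeR adjusted p 7.48e-13). It is also a CD4 T cell marker, and the summed CD4 markers went from 7.35 to 8.28 CPM up to 29.3 to 35.3 CPM with it. The other markers did not follow: Cd4 had a mean of 0.101 CPM with vehicle and 0.0533 CPM without glutamine, and Cd40lg fell by 1.09 on the log2 scale (edgeR adjusted p 5.84e-05). Plekha1, which encodes a phosphoinositide-binding adaptor, rose from 4.22, 5.76, 4.41 and 4.92 CPM to 36.5, 34.7, 32.9 and 43 CPM (log2 fold change 2.93, SE 0.11, edgeR adjusted p 2.62e-13), and its vehicle region was 12.7 kb wide with a glutamine-free one 3.22 kb from the start. Vldlr, a lipoprotein receptor gene, was at 0.703 to 2.23 CPM with vehicle and 7.73 to 10.1 CPM without glutamine (log2 fold change 2.88, SE 0.30, edgeR adjusted p 3.12e-07). Its vehicle region of 6.58 kb was itself met by a glutamine-free region, which lay 1.32 kb from the start, just outside the promoter window. Amigo2, an adhesion molecule gene, and Glce, a heparan sulfate epimerase gene, completed the 6 largest rises, at log2 fold changes of 2.76 and 2.19.

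Other vehicle-only genes fell by as much. Prdm1 RNA was 4.48, 5.61, 3.16 and 3.94 CPM with vehicle and 0.268, 0.472, 0.502 and 0.343 CPM without glutamine, so every glutamine-free library lay below every vehicle one. It fell by 3.47 on the log2 scale (SE 0.26, edgeR adjusted p 2.71e-09), while its vehicle region covered the start and the glutamine-free regions did not. Igfbp7, a secreted growth factor binding protein gene with a vehicle region of 9.16 kb, was at 6.14, 5.86, 7.69 and 7.94 CPM and then at 0.578, 0.787, 0.558 and 0.580 CPM. It fell by 3.46 on the log2 scale (SE 0.17, edgeR adjusted p 8.64e-12). The remaining large falls were Fhl2, a LIM-domain cofactor gene, at -2.54, Plpp2, a lipid phosphatase gene, at -2.54, Asph, an aspartyl hydroxylase gene, at -2.43, and Vcl, the focal adhesion gene for vinculin, at -2.22. The vehicle regions of Asph and Vcl were weak, 13019th and 13254th of the list, and close to the IDR threshold (-log10 IDR of 1.38 and 1.34). Those of Fhl2 and Plpp2 were 4316th and 2857th. Reads of Vcl are uncertain, since 25.5% of its exon bases overlap Ap3m1 and the counting did not use strand.

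The T cell genes that were vehicle only did not move as 1 group. Lef1 RNA was 47.4, 51.8, 36.4 and 49.1 CPM with vehicle and 68.0, 62.1, 64.5 and 71.3 CPM without glutamine, a rise of 0.52 (log2, SE 0.08, edgeR adjusted p 2.8e-05) with no overlap of the groups. The Lef1 vehicle region did not cover the start. Its promoter window also held a region of acetylated H3K27, a mark of active promoters, both with vehicle and without glutamine. Igfbp4, a binding protein gene expressed in naive cells, rose by 0.90 (SE 0.12, edgeR adjusted p 3.07e-06). The Igfbp4 vehicle region, 1.07 kb wide and 11113th of its list, lay downstream of the start and only just entered the promoter window. No glutamine-free region lay within 200 kb of the start. Eomes was at 17.4, 19.4, 17.2 and 15.7 CPM and then 15.9, 15.6, 16.2 and 14.2 CPM, groups that overlapped. Its log2 fold change of -0.17 (SE 0.07, edgeR adjusted p 0.0487) was lost on leaving out any of vehicle libraries A and B or glutamine-free libraries A, B and D (adjusted p 0.0627 to 0.202). Id2, an inhibitor of E proteins, had a log2 fold change of 0.11 (edgeR adjusted p 0.213) and Maf one of 0.53 (SE 0.30, edgeR adjusted p 0.147), neither past the threshold. Cdkn1a RNA was 63.2, 59.7, 82.9 and 78.3 CPM with vehicle and 128, 114, 113 and 112 CPM without glutamine, a rise of 0.72 (log2, SE 0.09, edgeR adjusted p 3.48e-06).

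Genes with a region in both lists also changed in both directions. Cth, which encodes the cystathionine gamma-lyase of cysteine synthesis, had regions of 7.28 kb with vehicle and 11.1 kb without glutamine. Its RNA was 17.7, 23, 19.7 and 22.5 CPM with vehicle and 224, 236, 237 and 220 CPM without glutamine, the latter all far above the former. The log2 fold change was 3.47 (SE 0.14, edgeR adjusted p 2.95e-12). Anxa3, an annexin gene, rose by 3.55, Zbtb10, a zinc finger factor gene, by 3.16 and Sbf2, a myotubularin-family gene, by 2.29 (log2). Among falls, Tubb6, a beta-tubulin gene, was at -3.88 (SE 0.20), Metrnl, a secreted factor gene, at -3.73 (SE 0.26), Slc1a2, a glutamate transporter gene, at -3.43 (SE 0.19) and P4ha2, a collagen prolyl hydroxylase gene, at -3.40 (SE 0.30). Rora rose from 2.04, 2.44, 1.53 and 2.66 CPM to 5.57, 4.62, 5 and 7 CPM (log2 fold change 1.35, SE 0.15, edgeR adjusted p 5.22e-07) and Gata3 by 0.48 (SE 0.09, edgeR adjusted p 0.000243). Hoxb9 was nearly silent with vehicle, at 0.0469, 0, 0.0313 and 0.0579 CPM, and reached 0.660, 0.630, 0.642 and 0.751 CPM without glutamine (log2 fold change 4.21, SE 0.43, edgeR adjusted p 1.65e-07). Its promoter lay within regions of 45.3 kb and 69.5 kb. Hoxb4, which had no promoter region, was at a mean of 1.10 and 0.615 CPM (log2 fold change -0.84, edgeR adjusted p 0.00079), and no other HOX gene passed the filter. Cdkn2a stayed very low, and its log2 fold change of -2.86 (SE 0.84, edgeR adjusted p 0.00759) came from groups that overlapped.

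Genes with a glutamine-free region only included strongly induced ones. Asns encodes asparagine synthetase, which uses glutamine as its nitrogen donor, and had a glutamine-free region from 2.32 to 0.926 kb upstream (5.84 and 4.68) that reached the promoter window but not the start. Its RNA was 77.2, 78.8, 69.6 and 82.9 CPM with vehicle and 407, 418, 407 and 402 CPM without glutamine, with no overlap (log2 fold change 2.40, SE 0.09, edgeR adjusted p 4.95e-13). Stc2, whose promoter is printed above, was at 1.59, 1.32, 1.78 and 2.55 CPM and then at 16.9, 16.4, 16.2 and 15.9 CPM (log2 fold change 3.19, SE 0.20, edgeR adjusted p 3.16e-10). Slc6a9, a glycine transporter gene, rose by 3.29 and Osbpl2, an oxysterol-binding protein gene, by 1.3 (log2), and the first is uncertain because 30.2% of its exon bases overlap other genes. The regions of Slc6a9 and Osbpl2 also ended upstream of the start. Slc6a9, like Stc2, had a promoter region in the CB-839 and DON lists as well, and Asns and Osbpl2 in the CB-839 list but not the DON list. Asns and Osbpl2 had a promoter region of acetylated H3K27 (H3K27ac, a mark of active promoters) without glutamine and none with vehicle. Ccr6 fell, from 0.750, 0.897, 1.34 and 1.01 CPM to 0.0619, 0.0263, 0.140 and 0.0429 CPM (log2 fold change -3.86, SE 0.44, edgeR adjusted p 6.72e-07). Fut4, a fucosyltransferase gene with a region of 5.13 kb over its start, fell from 17.6, 16.4, 14.5 and 15.4 CPM to 3.42, 4.25, 4.08 and 3.56 CPM (log2 fold change -2.07, SE 0.10, edgeR adjusted p 1.53e-11). Tubb2b, a beta-tubulin gene, fell by 2.44, Ifitm3, an interferon-induced membrane protein gene, by 2.09 and Hip1, an endocytic adaptor gene, by 1.93 on the log2 scale. The class of Tubb2b rests on the window edge. Its glutamine-free region only just entered the window and was itself met by a vehicle region, which lay 1.07 kb from the start.

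**Figure D5:**
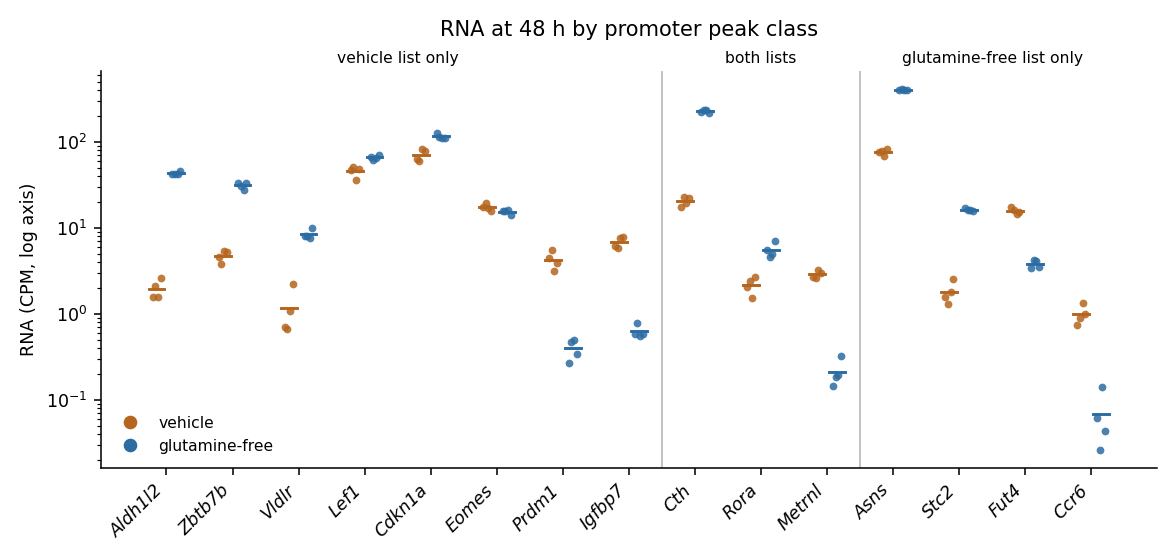
RNA level (y axis, CPM on a log scale) of genes with a promoter region with vehicle only, in both lists or without glutamine only (x axis), with 1 point per library, 4 with vehicle (orange) and 4 without glutamine (blue), and a bar at the mean. Each class holds genes that rose, such as Aldh1l2, Cth and Asns, and genes that fell, such as Prdm1, Metrnl and Ccr6.

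Among the enzymes that write, read and erase the mark, the PRC2 genes Ezh2 and Suz12 did not pass the test, and Kdm6b and Ezh1 rose. Ezh2 was at 624, 665, 490 and 573 CPM with vehicle and 550, 540, 542 and 582 CPM without glutamine, and its log2 fold change of -0.09 (SE 0.07, edgeR adjusted p 0.336) did not pass. That value was 0.01 when scaled by library totals alone, and passed as -0.17 without vehicle library C (adjusted p 0.0146). Suz12, a core PRC2 subunit, had a log2 fold change of 0.11 (edgeR adjusted p 0.493) and Kdm6a 0.21 (edgeR adjusted p 0.0863). Kdm6b was at 19.6, 18.9, 17.5 and 20.6 CPM and then at 32.5, 31.8, 29.9 and 31.7 CPM, a rise of 0.72 (log2, SE 0.07, edgeR adjusted p 4.44e-08). Ezh1 rose by 0.53 (SE 0.05, edgeR adjusted p 9.24e-08). The gene list used was wider and also held other chromatin enzymes, such as Crebbp, Hdac1 and Kmt2d. Of its 40 genes measured 17 rose and 7 fell, beside 28% and 26.3% of all genes tested. Some of these genes had a region in their own promoter window: Cbx8 and Pcgf1 in both lists, and Cbx2, Phc1 and Phc2, all PRC1 subunits, among those with vehicle only. At Cbx8, Pcgf1 and Phc1 these regions lay upstream and did not cover the start. Pcgf1 and Phc1 also had a vehicle H3K27ac region in the promoter window. Phc1 rose from 14.9, 14.8, 12.9 and 15.9 CPM to 26.3, 24.5, 25 and 28.6 CPM (log2 fold change 0.84, SE 0.08, edgeR adjusted p 4.15e-08).

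The other peak lists at 48 h gave a readout that the choice of regions did not use. Vehicle regions matched without glutamine were also in the CB-839 list in 85.20% of cases (5211 of 6116) and in the DON list in 38.98%, against 44.02% (3275 of 7440) and 7.608% of unmatched ones. Glutamine-free regions behaved likewise, with 85.99% of matched and 34.33% of unmatched regions in the CB-839 list and 39.15% and 7.862% in the DON list. These lists held 12417 and 3533 regions. Matched regions were also wider, with medians of 5446 against 2744 bases with vehicle and 5727 against 2958 without glutamine. Width was not held equal in these shares. Acetylation of the same lysine (H3K27ac), which marks active promoters and cannot occur on a trimethylated residue, hardly overlapped: 63 of 13556 vehicle regions (0.4647%) met a vehicle H3K27ac region and 5 of 8795 glutamine-free regions (0.05685%) met a glutamine-free one. By gene, a vehicle H3K27ac promoter region was present at 5.02% of protein-coding vehicle-only genes, 1.29% of those in both lists, 3.98% of those without glutamine only and 34.3% of those with neither.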

How the data were processed

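RNA-seq of 16 libraries at 48 h (vehicle, glutamine-free, CB-839 and DON), the H3K27me3 peak lists of these 4 conditions and the H3K27ac lists of vehicle and glutamine-free cells were used. The members and gene lists (19 lists, 606 entries, 587 in the table) were chosen with earlier results of these data known. A rule named 122 genes, of which some are reported: the 6 with the strongest signal in each promoter class, the genes called with no overlap of groups and a mean log2 CPM of at least 1 with the largest rise and fall (6 and 6 with vehicle only, 4 and 4 in the other classes), genes in the 5 widest regions of each list, up to 4 members of each gene list, and immune genes with the smallest adjusted p. Other list members and enzymes were named after their values were seen. Some genes that the rule or lists took are not reported here. The deposited counts per gene were made by the authors with featureCounts 2.0.1 on GENCODE M25 (mm10) without a strand option, per the file headers, although the labels describe stranded libraries. The submitters' processing notes also name STAR, MACS2, Bowtie2, deepTools and FastQC, with no version given. Per the file headers and values, the deposited peak lists hold merged intervals, a score, −log10 p, q and IDR columns and a signal that is the sum of 2 replicate signals. The authors' signal was used only to describe and rank regions within a list, and which replicate column is which sample is not given in the sources used here.

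Overlap meant at least 1 base. A promoter was 1000 bases either side of the outermost exon end of a gene of the count table. The 16 RNA libraries at 48 h were fitted together in R 4.3.3 with edgeR 4.0.16 (TMM scaling, low counts filtered, robust quasi-likelihood test, Benjamini-Hochberg adjustment), tested first on simulated data. CPM used TMM-scaled library totals. Total counts ran from 35.2 to 48.2 M in the 8 libraries compared. Alternatives were a stricter IDR of 0.01, 50% overlap, equal list length, joined regions within 3000 bases, intervals of single replicates, a 2500-base window, RLE and DESeq2 1.42.0, library totals, no filter, fewer libraries and the replicate letter as a block.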

Additional observations from a re-analysis of the deposited data

Results flagged for a closer look

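In 10 of 94 groups of 4 libraries (47 genes in 2 conditions), 1 library lay far from the other 3, where chance gives about 1 in 20 groups. Vehicle library C, which stood apart from its group over all genes, gave 4 of them: Crebbp was low there at 15.2 CPM (others 22 to 22.8), Hip1 low at 13 CPM (15.8 to 16.3), Ifitm3 high at 7.22 CPM (3.52 to 4.05) and Pcgf1 high at 10.4 CPM (7.5 to 7.82). Without glutamine, library D was high for Aldh1l2 at 46.6 CPM (42.8 to 43) and Vldlr at 10.1 CPM (7.73 to 8.09) and low for Hip1 at 3.09 CPM (4.29 to 4.44). Cdkn1a was high in glutamine-free library A at 128 CPM (112 to 114), Igfbp7 high in library B at 0.787 CPM (0.558 to 0.580) and Erg, an ETS factor gene with a region in both lists, high in library C at 0.586 CPM (0.236 to 0.268).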

How the results depend on the processing

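The share of vehicle regions matched was 45.12% and became 32.6% at an IDR of 0.01, 37.8% at 50% covered, 53.8% with lists of equal length, 46.1% with regions within 3000 bases joined, and 44.1% and 44% on the intervals of the first and second replicate. For glutamine-free regions (67.61%) these were 69.0%, 57.7% and 55.8%, with 66.4% and 66.1% on replicate intervals. Median widths with vehicle and without glutamine were 5540 and 7686 bases at an IDR of 0.01, 4401 and 5168 joined, 3110 and 4091 on the first and 3108 and 3933 on the second replicate. Glutamine-free regions stayed the wider in each of these settings. Widths were not compared with lists of equal length, and in pairs of 1 region with 1 region the median ratio was 1.002. Genes in both lists numbered 1821 and glutamine-free only 526 at an IDR of 0.01, and the latter 1288 at equal length. Vehicle genes lacking a glutamine-free region, over 1 CPM and at or below it, were 70.7% and 51.5% at an IDR of 0.01, 45.7% and 21.9% at equal length, 47.2% and 26.4% with 50% of the window covered, and 24.5% and 12.4% against CB-839, alternatives chosen after seeing the data. Causes were not tested. With the replicate block 8514 genes were called (8777 without), and 417, 508 and 99 in the classes with vehicle only, both and glutamine-free only. Same-lettered vehicle and glutamine-free libraries correlated at -0.104 to 0.19 in their deviations from group means. These values cannot settle what a letter shares, which the labels do not say. Leaving out 1 library gave 8038 to 9297 genes, and 399 to 438, 485 to 523 and 87 to 96 in the classes. Of 657 values for 47 named genes 646 kept direction and call, Eomes lost its call in 8, Ezh2 was called at -0.17 without vehicle library C and changed sign to 0.01 with library totals, and Id2 was called at 0.21 with library totals.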
